A study of Homo sapiens with 6 samples.

Results

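Transcripts of 10 genes of ferritin and iron handling were followed in HL-60 cells with and without amiodarone: FTH1, FTL, NCOA4, TFRC, STEAP3, SLC11A2, ACO1, IREB2, HMOX1 and SLC40A1. They were chosen by gene symbol from an expression table of 17911 genes, and each symbol had 1 row. Of the 10, 9 passed the filter on low values (3 or more libraries with a value no lower than 1), as did 11445 genes in all, and SLC40A1 did not. HL-60 is an established line grown from a human acute myeloid leukaemia, and amiodarone is an antiarrhythmic drug whose cationic amphiphilic structure lets it collect in lysosomes. RNA of 3 samples labelled control was compared with RNA of 3 given 10 uM amiodarone for 24 h. The labels do not say whether controls received vehicle, nor whether the 3 samples of a group were separate cultures, so p-values measure the spread between these samples, which may be technical. The series title presents amiodarone as an activator of the deacetylase SIRT3 and speaks of death by autophagy and mitophagy.

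Most cells take up iron bound to transferrin. The transferrin receptor, encoded by TFRC, carries it into endosomes, where the reductase STEAP3 reduces the iron and the divalent metal transporter SLC11A2 moves it into the cytosol. Iron not in use is stored in ferritin, a hollow shell of heavy chains (FTH1), which oxidize iron on entry, and light chains (FTL), which help the mineral form. NCOA4 is the receptor that delivers ferritin to lysosomes by autophagy, HMOX1 frees iron from haem, and SLC40A1, ferroportin, is the only known iron exporter of mammalian cells. The iron regulatory proteins, ACO1 (IRP1) and IREB2 (IRP2), bind short RNA hairpins called iron-responsive elements when iron is scarce. Binding in the 5′ untranslated region blocks translation of ferritin and ferroportin, and binding in the 3′ untranslated region of TFRC protects that transcript from decay.

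These hairpins were located in the transcript sequences of GENCODE 29 (GRCh38), because they are the sequence feature that sets the 2 ends of the pathway apart. The search, on the transcript strand only, was for a C, any 5 bases, CAGTGN and 5 further bases able to pair with the first 5, with G-T pairs allowed. Such a match occurred in the 5′ untranslated region of 37 of 16876 genes of the table (0.219%) and in the 3′ untranslated region of 157 of 17125 genes (0.917%). FTH1, FTL and SLC40A1 each had 1 match in the 5′ region, and TFRC had 4 in the 3′ region within 545 bases, each inside 1 exon. The matches are printed as DNA, 5′ to 3′, over 29 bases, with the loop of 6 bases in capitals; a match is a description and not a measured site.
FTH1, 5′ region, chr11:61967574-61967602, minus strand: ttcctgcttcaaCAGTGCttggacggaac
FTL, 5′ region, chr19:48965335-48965363, plus strand: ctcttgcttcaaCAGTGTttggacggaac
SLC40A1, 5′ region, chr2:189580661-189580689, minus strand: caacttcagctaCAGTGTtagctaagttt
TFRC, 3′ region, chr3:196050979-196051007, minus strand: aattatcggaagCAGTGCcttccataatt
TFRC, 3′ region, chr3:196050575-196050603, minus strand: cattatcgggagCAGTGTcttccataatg
TFRC, 3′ region, chr3:196050510-196050538, minus strand: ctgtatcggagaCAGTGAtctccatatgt
TFRC, 3′ region, chr3:196050463-196050491, minus strand: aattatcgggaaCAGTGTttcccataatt
The elements of FTH1 and FTL were identical at 26 of 29 bases, and those of FTH1 and SLC40A1 at 13 of 29. No match was found in SLC11A2, which says only that these letters were not in its annotated untranslated regions.

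After amiodarone, FTH1, FTL, NCOA4 and HMOX1 were higher, and TFRC, STEAP3 and ACO1 were lower. The limma test on log2(value + 1), with Benjamini-Hochberg adjustment over all 11445 tested genes at a threshold of 0.05, called 4 of the 9 tested members higher and 3 lower. Across the table it called 78.3% of tested genes, 33.5% higher and 44.8% lower. The count of members called is thus close to the background of a table in which most genes differed, and what sets a member apart is the size of its change. Values of control and amiodarone libraries did not overlap in 8 of the 9, as in 79.3% of all tested genes. The median log2 fold change was 0.08 over the 9 and -0.06 over all tested genes.

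The table resembles RPKM, in which reads are divided by gene length and by sequencing depth, so that levels of different genes can be set side by side. From the spacing of low values, each library was estimated to hold 16400000 to 18300000 reads or fragments. Between 11129 and 11323 genes reached a value of 1 in a library. No library stood apart: log2 values of libraries of 1 group correlated at 0.9975 to 0.9982. The transcripts of 9 myeloid markers, MPO the highest of them, were all present in every library, with summed values of 7538.5 to 7671.7 in controls and 3586.7 to 3702.1 after amiodarone. MPO made up most of each sum (5962.3 ± 43.7 and 2613.4 ± 28.4), and the list went both ways: SPI1 was called higher (337 ± 2.53 to 439 ± 21.3), CD33 was not called, and the other 7 were lower. Lists of other lineages were low. The 4 erythroid markers with a row summed to 7.54 or less, and the 4 T cell and 3 B cell markers to at most 5.03 and 12.8. The 7 macrophage markers summed to between 1.1 and 1.28 in controls and between 3.0 and 4.04 after amiodarone, with 6 of the 7 under 1 in every library. The part of these marker shifts in the iron-gene results was not tested. RNA came from whole cultures, so a change in the kinds of cells present and a change in RNA per cell cannot be told apart.

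**Figure D1:**
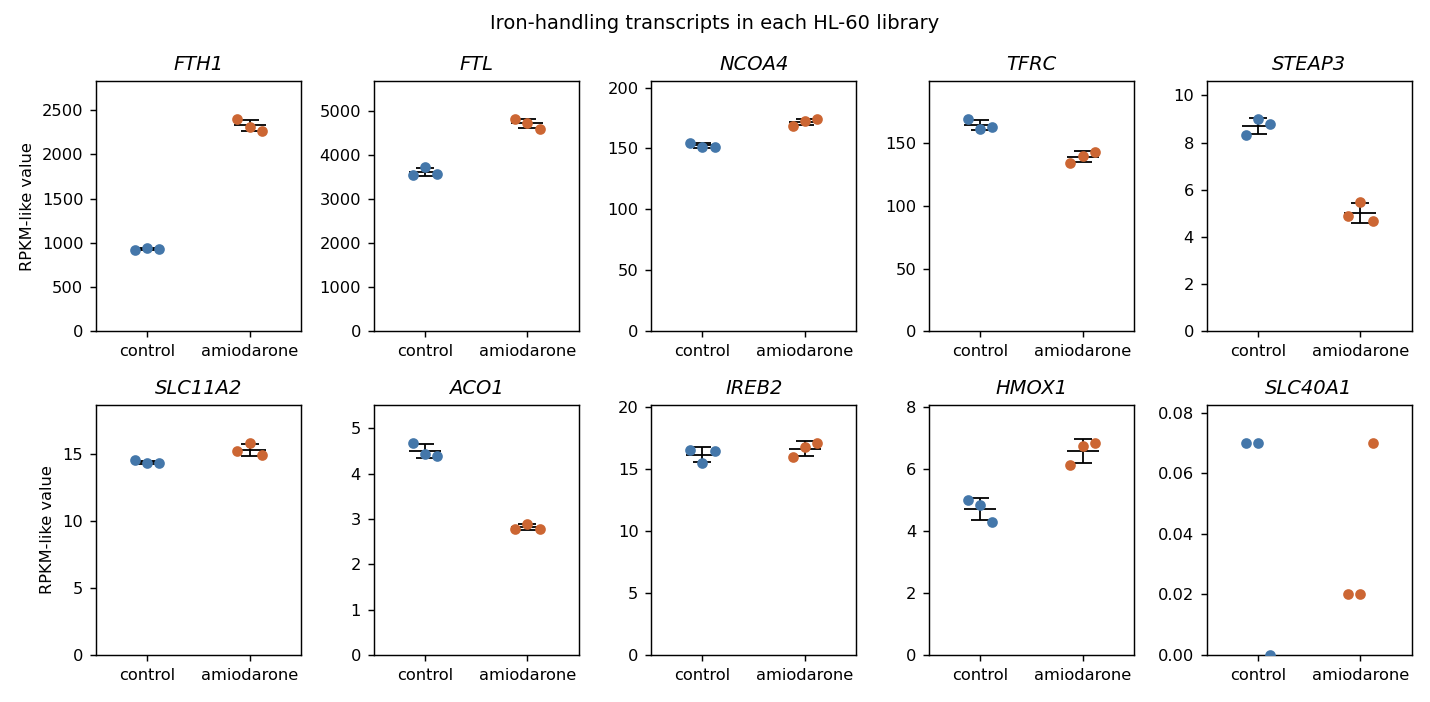
Value of each of the 10 transcripts in every library, in RPKM-like units on axes that start at 0, with controls in blue and amiodarone in orange; bars give the mean and SD (n = 3), left out for SLC40A1, which is listed at 0 in 1 control. FTH1 moved from 922 to 937 in controls up to 2271 to 2399.5, while IREB2 overlapped between the groups.

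FTH1, the ferritin heavy chain gene (Entrez 2495, chromosome 11, 61959718 to 61967660, minus strand), had the largest change of the members. Control libraries had 922, 937 and 933, and libraries of amiodarone-treated cells had 2399.5, 2314 and 2271. Every amiodarone library was far above every control. The mean went up 2.5-fold, from 931 ± 7.42 to 2328 ± 65.3 (SD, n = 3 in each). On the log2 scale the rise was 1.32 (standard error 0.023, limma, adjusted p = 6.88e-12). Only 1.8% of tested genes had a larger change in either direction. By rank of mean value, the transcript moved from position 101 to position 38 among the 17911 genes. BEST1 lies on the opposite strand over 62.4% of the exonic bases of FTH1, but its own values were 0.49 to 0.7 in controls and 0.95 to 1.21 after amiodarone. GENCODE 29 names 25 pseudogenes after FTH1 and 16 after FTL, and how reads that fit several copies were counted is not given in the sources used here. The only such copy with a row, FTH1P18, was at 0 in 5 libraries and 0.13 in the other.

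FTL, the light chain gene (Entrez 2512, chromosome 19, 48965301 to 48966878, plus strand), was the most abundant member in both groups. Controls had 3555, 3719 and 3560.4, and amiodarone libraries 4815, 4736 and 4600.5. The groups were apart, although the step was far smaller than that of FTH1. The mean rose 1.31-fold, from 3612 ± 93.4 to 4717 ± 108, a log2 fold change of 0.39 (standard error 0.025, limma, adjusted p = 1.14e-07), and 39.9% of tested genes changed more. The 2 chains therefore rose unequally, which a ratio within each library shows without regard to how libraries were scaled. The ratio of FTH1 to FTL was 0.259, 0.252 and 0.262 in controls and 0.498, 0.489 and 0.494 after amiodarone. It rose 1.92-fold, by 0.94 on the log2 scale (standard error 0.019). With 3 libraries against 3, an exact two-sided permutation test cannot give a p below 0.1, and it gave 0.1 for this ratio. The heavy chain made up 20.5% ± 0.336 of the summed ferritin values in controls and 33.0% ± 0.219 after amiodarone (SD, n = 3). Both chains together rose from 0.847% ± 0.0144 to 1.23% ± 0.0238 of the sum of all values in a library.

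NCOA4, the autophagy receptor for ferritin (Entrez 8031, chromosome 10, 46005088 to 46030714, minus strand), had a small rise. Values of 155, 151 and 151 in controls stood against 169, 172 and 174. The lowest amiodarone library lay above the highest control. The mean rose 1.13-fold, from 152 ± 2.04 to 172 ± 2.71, or by 0.17 on the log2 scale (standard error 0.024, limma, adjusted p = 5.57e-05), but 70.6% of tested genes changed more. Against a null of a 1.2-fold change rather than none, the call of NCOA4 ended (adjusted p = 1), as did those of TFRC (adjusted p = 1) and HMOX1 (adjusted p = 0.0539). The ratio of FTH1 to its receptor went from 6.11 ± 0.128 to 13.6 ± 0.598 (2.22-fold, exact permutation p = 0.1).

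On the uptake side, TFRC, the transferrin receptor gene (Entrez 7037, chromosome 3, 196027183 to 196082189, minus strand), fell. Controls had 169, 162 and 163, and the amiodarone libraries 135, 139.9 and 143. All 3 treated libraries were below all controls, by a margin several times the spread within a group. The mean went from 165 ± 4.17 to 139 ± 4.38, a change of -15.3% and a log2 fold change of -0.24 (standard error 0.03, limma, adjusted p = 2.22e-05). Changes larger than this were found in 59.6% of tested genes. FTH1 and TFRC, which carry the hairpin at opposite ends of the transcript, moved in opposite directions. Whether the hairpins had a part in these RNA changes was not tested. The ratio of FTH1 to TFRC was 5.45, 5.8 and 5.73 in controls and 17.8, 16.5 and 15.9 after amiodarone, a 2.96-fold rise (log2 difference 1.56, standard error 0.057, exact permutation p = 0.1). It was the largest of the 5 ratios computed, each of which had an exact permutation p of 0.1 before and after Benjamini-Hochberg adjustment.

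STEAP3, the endosomal ferrireductase gene (Entrez 55240, chromosome 2, 119223831 to 119265652, plus strand), had the largest fall of the members. It stood at 8.31, 8.99 and 8.77 in controls and at 4.9, 5.48 and 4.66 after amiodarone. No treated library came near a control. The mean fell from 8.69 ± 0.347 to 5.01 ± 0.422, a ratio of 0.577 and a log2 fold change of -0.69 (standard error 0.061, limma, adjusted p = 1.30e-06), and 14.8% of tested genes changed more. An antisense gene, STEAP3-AS1, lies over 11% of its exonic bases.

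SLC11A2, which encodes the metal transporter DMT1 (Entrez 4891, chromosome 12, 50979401 to 51028566, minus strand), was not called. Controls were at 14.53, 14.3 and 14.33, and amiodarone libraries at 15.2, 15.83 and 14.91. The groups did not overlap, but the means of 14.4 ± 0.125 and 15.3 ± 0.47 differed by only 6.44% (log2 fold change 0.08, standard error 0.039, limma, adjusted p = 0.0681). Its call depended on scaling: it was called higher after scaling by the median of ratios (log2 fold change 0.12, adjusted p = 0.0136) and changed sign after scaling to equal sums (-0.001).

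**Figure D2:**
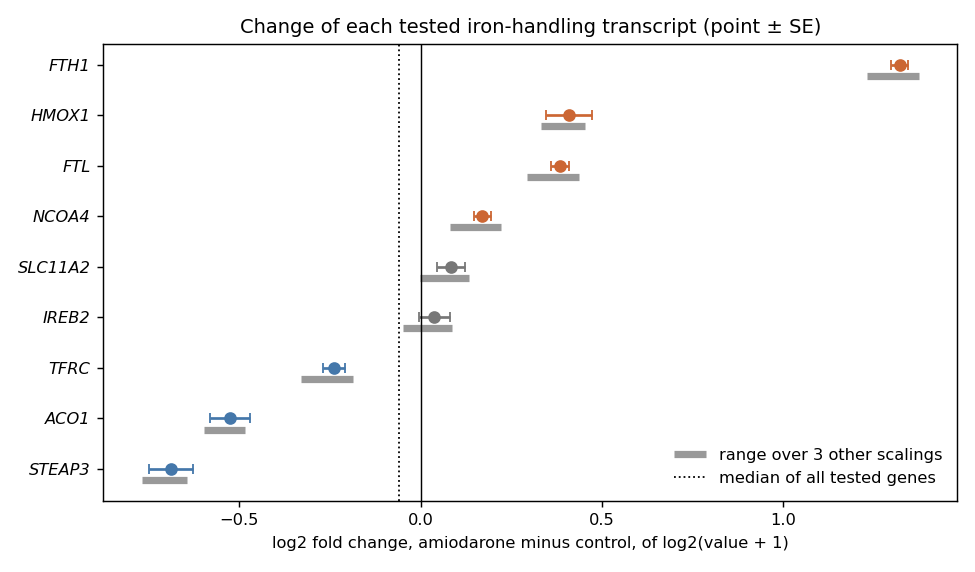
Log2 fold change of the 9 tested transcripts (horizontal axis, amiodarone minus control on log2(value + 1)), as points with the standard error, orange if called higher, blue if lower and grey if not called; grey bars give the range over 3 other scalings. FTH1 at 1.32 stands alone, and the bars of SLC11A2 and IREB2 reach 0 or cross it.

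The 2 iron regulatory protein genes went separate ways. ACO1, whose protein is either a cytosolic aconitase holding an iron-sulfur cluster or, without it, IRP1 (Entrez 48, chromosome 9, 32384603 to 32454769, plus strand), had 4.68, 4.44 and 4.4 in controls. It had 2.79, 2.89 and 2.79 after amiodarone. The amiodarone values were tightly grouped and well below the controls. The mean went from 4.51 ± 0.151 to 2.82 ± 0.0577, a change of -37.4% with a log2 fold change of -0.53 (standard error 0.056, limma, adjusted p = 5.95e-06), and 25.6% of tested genes changed more. IREB2, encoding IRP2 (Entrez 3658, chromosome 15, 78437431 to 78501456, plus strand), had 16.56, 15.48 and 16.45 in controls and 15.94, 16.81 and 17.11 after amiodarone. These ranges overlapped, and the means of 16.2 ± 0.594 and 16.6 ± 0.608 were not called different (log2 fold change 0.04, standard error 0.043, limma, adjusted p = 0.434). Its small difference became -0.05 with scaling to equal sums. The ratio of IREB2 to ACO1 rose from 3.59 ± 0.133 to 5.89 ± 0.218, or 1.64-fold (exact permutation p = 0.1).

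Of the proteins that control IRP2, FBXL5 is the iron-sensing part of the ubiquitin ligase that sends it for degradation. Its transcript changed more than that of any member. Values of 20.66, 19.92 and 20.66 in controls became 61.12, 62.58 and 63.61, a 3.06-fold rise from 20.4 ± 0.427 to 62.4 ± 1.25 (log2 fold change 1.57, standard error 0.032, limma, adjusted p = 1.67e-11). Of its partners in that ligase, the list held CUL1, the scaffold, and SKP1, the adaptor. CUL1 fell from 18.3 ± 0.143 to 14.0 ± 0.257. SKP1 fell from 30.5 ± 0.393 to 25.1 ± 1.87, a call that ended against the 1.2-fold null (limma, adjusted p = 0.764). So in this list of 5 genes, 1 was higher, 3 were lower and 1, IREB2, was not called. The list's median was -0.27 on the log2 scale against -0.06 over all tested genes, and -0.12 with a minimum value of 5, which removed ACO1.

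HMOX1, the inducible haem oxygenase gene (Entrez 3162, chromosome 22, 35380361 to 35394214, plus strand), was expressed at a low level and rose. Its values were 4.98, 4.82 and 4.29 in controls and 6.13, 6.73 and 6.83 after amiodarone. The treated libraries all lay above the controls. The mean rose 1.4-fold, from 4.7 ± 0.361 to 6.56 ± 0.379, with a log2 fold change of 0.41 (standard error 0.064, limma, adjusted p = 1.24e-04), and 37.0% of tested genes changed more. At the estimated depth these values stand for about 141 to 205 reads per library, where counting alone gives an error near 7.53% of the value. HMOX2, the constitutive haem oxygenase gene, fell from 37.0 ± 0.751 to 29.8 ± 1.42 (log2 fold change -0.3, limma, adjusted p = 2.49e-05) and remained the more abundant of the pair. The ratio of HMOX1 to HMOX2 went from 0.127 ± 0.0122 to 0.221 ± 0.0226 (exact permutation p = 0.1).

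SLC40A1, the ferroportin gene (Entrez 30061, chromosome 2, 189560579 to 189583758, minus strand), was close to absent. It was listed at 0.07, 0.07 and 0 in controls and at 0.02, 0.02 and 0.07 after amiodarone, which is about 0 to 4 reads per library at the estimated depth. No change could be detected at this depth, and no fold is given. The other 3 genes of the iron export list, HEPH, CP and HAMP, did not pass the filter either, so no gene of iron export was tested.

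**Figure D3:**
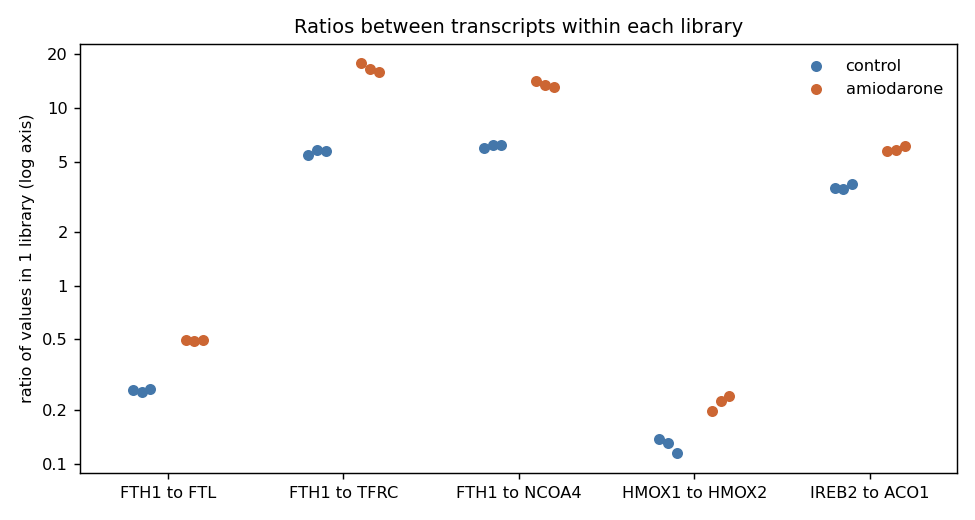
Ratio of values of 2 transcripts in each library (vertical log axis), for 5 pairs, with 3 controls in blue and 3 amiodarone libraries in orange. Each ratio is higher in all amiodarone libraries than in all controls, and FTH1 to TFRC rises furthest, from between 5.45 and 5.8 to between 15.9 and 17.8.

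Per unit of length, the order of levels in controls was FTL, FTH1, TFRC, NCOA4, IREB2, SLC11A2, STEAP3, HMOX1, ACO1 and SLC40A1. In that order HMOX1 and ACO1 did not differ beyond their spread, since the ACO1 values lay within the range of HMOX1. After amiodarone NCOA4, at 172 ± 2.71, stood above TFRC, at 139 ± 4.38. HMOX1, at 6.56 ± 0.379, likewise stood above STEAP3, at 5.01 ± 0.422, and in both swaps the libraries of the 2 genes did not overlap.

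Other genes of iron biology were taken from 11 lists, 97 genes beside the members. Of these 82 were tested, 30 were called higher, 39 lower and 13 not called; their median was -0.06, the same as over all tested genes. Their shares called resemble the 33.5% and 44.8% of the whole table. Lists that share members are not independent of each other.

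In the list of transferrin uptake and metal import, 8 of 13 genes were tested, 5 were lower and 2 higher, with a median of -0.17. Beside TFRC and STEAP3, the second transferrin receptor TFR2 fell from 6.28 ± 0.342 to 3.94 ± 0.166 (limma, adjusted p = 4.53e-06). SLC39A14, a zinc transporter that also carries free iron, fell from 16.0 ± 0.737 to 10.7 ± 0.516 (adjusted p = 1.59e-06, limma). The 2 called higher were SLC11A1, a metal pump of phagosomes (0.853 ± 0.0404 to 1.82 ± 0.0265), and HFE, a partner of the transferrin receptors (0.757 ± 0.125 to 1.66 ± 0.257). Neither had a control value of 1, so that they had to be higher to be tested. The list's median depended on which genes were tested: it was -0.05 over all 13 genes with no filter and -0.39 over 6 genes with a minimum value of 5. It was -0.38 without amiodarone replicate 1, -0.38 without replicate 2 and -0.42 without replicate 3 of that group.

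The storage list held 7 tested genes, 4 higher and 2 lower, with a median of 0.17. TAX1BP1, an autophagy receptor that works with NCOA4, rose 1.64-fold (39.1 ± 0.961 to 64.2 ± 0.386, limma, adjusted p = 3.38e-09). PCBP2, a cytosolic iron chaperone, fell from 266 ± 3.33 to 204 ± 2.18. HERC2, a ubiquitin ligase that acts on NCOA4, fell from 14.9 ± 0.567 to 11.9 ± 0.824. Of the exonic bases of PCBP2, 13.8% are shared with AC023509.1 on its own strand and 18.8% lie opposite MAP3K12.

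Haem genes were mixed. In haem synthesis 7 of 11 tested genes were lower and 2 higher, with a median of -0.19. ALAS1, the first and rate-limiting enzyme, rose 1.48-fold from 128 ± 1.92 to 190 ± 0.417 (limma, adjusted p = 2.91e-09). Among enzymes of later steps, UROS fell from 31.2 ± 1.57 to 21.7 ± 0.426 and UROD from 41.5 ± 0.308 to 28.5 ± 1.34. CPOX (11.4 ± 0.521 and 10.8 ± 0.716) and FECH, the enzyme of the last step (3.2 ± 0.403 and 2.79 ± 0.159), were not called; both are named after their values were seen. Among 7 tested genes of haem breakdown and transport 3 were higher and 3 lower. The haem exporter gene FLVCR1 rose 1.33-fold (4.4 ± 0.269 to 5.85 ± 0.108). The lysosomal haem transporter gene SLC48A1 fell from 12.7 ± 0.301 to 10.4 ± 0.227, and PGRMC1, a haem-binding membrane protein gene, from 18.2 ± 0.739 to 9.21 ± 0.54.

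Separate lists held genes of the cytosol and of mitochondria that place iron into iron-sulfur clusters. Of the 9 genes of the cytosolic assembly list 7 were lower and 1 higher, with a median of -0.19, where 44.8% of all tested genes were lower. The lower ones included NUBP2 (38.5 ± 2.16 to 28.7 ± 1.11), CIAO2A, an assembly factor that also binds IRP1 (59.6 ± 2.08 to 49.8 ± 1.1), MMS19 (38.2 ± 0.841 to 32.9 ± 0.877) and NDOR1 (6.33 ± 0.142 to 5.04 ± 0.208). The calls of CIAO2A, MMS19 and NDOR1 ended against the 1.2-fold null (limma, adjusted p = 1, 1 and 0.693). The difference between the cytosolic and mitochondrial lists was not tested. The 18 mitochondrial genes were divided, 8 lower and 6 higher, with a median of -0.04 near that of all genes. The glutaredoxin gene GLRX5 fell from 57.5 ± 1.89 to 37.3 ± 1.32, the ferredoxin reductase gene FDXR from 6.69 ± 0.471 to 4.1 ± 0.212, ISCA1 from 12.7 ± 0.877 to 9.08 ± 0.293 and BOLA3 from 28.0 ± 1.34 to 21.2 ± 2.02.

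**Figure D4:**
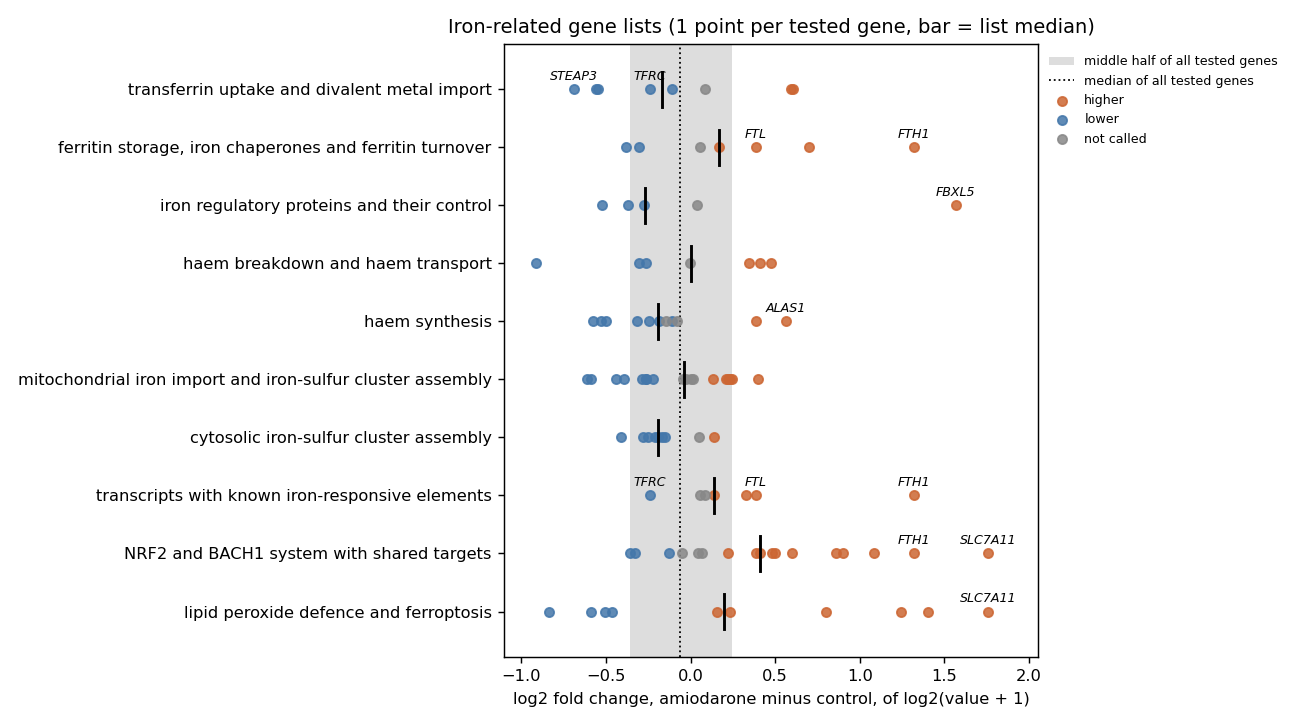
Log2 fold change (horizontal axis, amiodarone minus control on log2(value + 1)) of every tested gene in 10 lists, orange if called higher, blue if lower, grey if not called; black bars are list medians, the grey band spans the quartiles of all tested genes and the dotted line their median. FTH1 (1.32), FBXL5 (1.57) and SLC7A11 (1.76) lie far to the right, and the NRF2 and BACH1 list has the highest median, 0.41.

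Transcripts known to carry iron-responsive elements did not move as 1 group. Of 7 tested, 4 were higher, 1 was lower and 2 were not called, with a median of 0.14. Beside ferritin, CDC42BPA, a kinase gene, rose from 2.45 ± 0.161 to 3.33 ± 0.289 (limma, adjusted p = 0.00135). Over all genes with the sequence match described above, 10 of 22 tested genes with a match in the 5′ region were higher and 9 lower (median -0.04). Of 125 tested genes with a match in the 3′ region, 33 were higher and 58 lower (median -0.08). Over all tested genes 33.5% were higher and 44.8% lower, with a median of -0.06.

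FTH1, FTL, HMOX1 and SLC40A1 are also known targets of NRF2, the activator encoded by NFE2L2, and of its haem-sensing competitor BACH1. The list of this system and its targets had 11 of 17 tested genes higher and 3 lower, where 33.5% and 44.8% of all tested genes were. Among the 11 were the members FTH1, FTL and HMOX1, already reported above. The list's median log2 fold change was 0.41, the value of HMOX1. NFE2L2 rose 1.84-fold (27.3 ± 0.555 to 50.3 ± 1.36, limma, adjusted p = 1.86e-09), and BACH1 rose as well, 1.45-fold (7.15 ± 0.133 to 10.4 ± 0.404). SLC7A11, the cystine transporter subunit gene, had the largest change among listed genes that were tested, on log2(value + 1), with 6.72, 6.25 and 6.31 in controls against 23.03, 25.06 and 24.27 (3.75-fold, log2 fold change 1.76, limma, adjusted p = 1.13e-10). ME1, which makes NADPH, rose 2.32-fold (5.65 ± 0.122 to 13.1 ± 0.359). The 3 lower genes were KEAP1 (-22.7%), MAFK (-21.9%) and SRXN1 (-8.78%), named here after their values were seen. TXNRD1 and GCLC, chosen in the same way, were at 52.5 ± 1.55 and 50.7 ± 3.24 and at 12.8 ± 0.426 and 13.2 ± 0.262, and were not called.

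In the list of lipid peroxide defence and ferroptosis, an iron-dependent form of cell death, 6 of 10 tested genes were higher and 4 lower, with a median of 0.2, or 0.48 with a minimum value of 5. SLC3A2, which pairs with SLC7A11, rose 2.66-fold (99.0 ± 3.04 to 263 ± 2.17). The polyamine acetyltransferase gene SAT1 rose 2.39-fold (70.9 ± 1.73 to 169 ± 2.53). ACSL4, which feeds polyunsaturated fatty acids into membranes, rose 1.77-fold (20.6 ± 0.463 to 36.6 ± 0.979). The 4 lower genes, named after their values were seen, were CHAC1, which degrades glutathione (7.47 ± 0.458 to 3.74 ± 0.289), LPCAT3 (33.3 ± 0.951 to 21.7 ± 0.764), DHODH (8.33 ± 0.0874 to 5.58 ± 0.435) and ALOX5 (4.35 ± 0.155 to 2.88 ± 0.23). CHAC1 changed by -0.84 on the log2 scale, about as far as ACSL4, at 0.80. Exons of LPCAT3 overlap EMG1 on the opposite strand over 65.6% of their bases. GPX4, the enzyme that reduces lipid peroxides, went from 334 ± 10.5 to 372 ± 10.9, a 1.12-fold difference (log2 fold change 0.16, limma, adjusted p = 4.76e-04) that was not called against a 1.2-fold null.

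By distance between profiles of log2(value + 1), centred on the control mean, over the 6 libraries, the coding genes nearest to FTH1 were ZNF454 (distance 0.0614), NFKBIA (0.0793) and GK (0.0933). NFKBIA, an inhibitor of NF-kB, went from 90.8 ± 1.42 to 234 ± 0.538. Nearest to TFRC were AGGF1 (0.0169), WDR43 (0.0183) and SORL1 (0.0354), of which WDR43 went from 51.2 ± 1.24 to 43.3 ± 1.32. With only 2 groups, such nearness mostly reflects a like difference between them.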

How the data were processed

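Per the labels, libraries were made with a stranded mRNA kit from total RNA. Tools listed in the submitters' processing notes are featureCounts, STAR (2.5.3a) and fastp (0.23.4), with GRCh38.p12 as the build. The annotation, the strand setting and the normalization were not given in the sources used here. The deposited values, whose unit the file headers do not state, behave like RPKM: between 47.2% and 55.9% of low values in short genes of 1 transcript fell no further than 0.15 from a whole step (30% by chance), although the step was chosen to raise this share. The depth is thus an estimate, and whole reads were not recovered. Values were used as deposited. Genes were tested with limma 3.58.1 in R 4.3.3 (lmFit, eBayes with trend, two-sided) on log2(value + 1), a scale that understates changes of low genes; folds of single genes are ratios of group means, ± is the SD over 3 libraries. The procedure was tested on simulated data in which far fewer genes changed than were called here, so that test does not give the error rate of these calls. Symbols turned into dates by a spreadsheet (26) were restored by Entrez ID. Coordinates and exon overlaps came from GENCODE 29. The members, gene lists and tests were chosen with earlier results of these data known, and no p-value was adjusted over a list alone. Named genes were the members, up to 4 called non-members of each list with the smallest adjusted p, or the 2 highest where none was called, and HMOX2, FBXL5, NFE2L2, BACH1 and GPX4; some genes that this rule names are not reported here. Alternatives were pseudocounts of 0.1 and 0.5, no filter, a minimum value of 5, 3 scalings, eBayes without trend or robust, a replicate block, a 1.2-fold null and leaving out each library.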

Additional observations from a re-analysis of the deposited data

How the results depend on the processing

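Under 17 alternatives, FTH1, FTL and STEAP3 kept their direction and their call in each; ACO1 did so in 16, having failed the minimum value of 5. The log2 fold change ranged from 1.231 to 1.374 for FTH1, 0.294 to 0.437 for FTL, -0.784 to -0.645 for STEAP3 and -0.656 to -0.485 for ACO1. Against a 1.2-fold null, 4472 genes were called, 1844 higher and 2628 lower, and 2 members were called higher. Fewer genes pass such a null by construction; 3 members and 12 other named genes lost their call. With scaling to equal sums the log2 fold change of IREB2 was -0.048 and that of SLC11A2 -0.001. Deposited values summed to between 534486 and 539030 in controls and between 568654 and 574483 after amiodarone. This scaling therefore lowered genes across the table, and the median over all tested genes moved by -0.084, to -0.145. Why the sums differed was not tested. A pseudocount of 1 lowered the log2 difference of the ratio of IREB2 to ACO1 from 0.715 to 0.564, since it weighs on the low ACO1 values. The median of the haem breakdown and transport list was near 0: it was 0.035 and 0.047 under 2 of the scalings, 0.053 when amiodarone replicate 2 was left out, 0.037 when control replicate 2 was, and -0.132 with a minimum value of 5, which left 6 genes. With the replicate number as a block, 8770 genes were called, and no call of a member changed. Deviations of same-numbered libraries correlated at -0.155, -0.018 and -0.023, so no effect shared by number was visible. These correlations cannot tell whether the numbers pair cultures, since a pairing need not show in the values. Depth limits SLC40A1, and HMOX1 to some degree.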

Other observations

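Some low transcripts of iron biology had values that did not overlap between the groups, but they lay under the filter and were not tested. They were chosen after their values were seen. The metalloreductase gene STEAP2 was at 0.11, 0.19 and 0.27 in controls and at 0.77, 0.68 and 0.72 after amiodarone. STEAP4, of the same family, was at 0.27, 0.34 and 0.23 and then at 0.69, 0.71 and 0.6. STEAP1, also of that family, was at 0.36, 0.25 and 0.16 in controls and at 0.15, 0.06 and 0 after amiodarone. CD163, the scavenger receptor for haemoglobin on macrophages, was at 0.05 in each control and at 0.76, 0.83 and 0.77 after amiodarone. ALAS2, the erythroid form of the first haem enzyme, was at 0.06, 0.06 and 0.03 in controls and at 0 in the 3 amiodarone libraries. Its values were as low as those of SLC40A1, which stand for about 0 to 4 reads per library at the estimated depth. Reads were not estimated for the genes of this paragraph, so the part of counting error in these gaps was not tested.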
